A study of Homo sapiens with 8 samples.

Results

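Alpelisib against vehicle was measured in 4 of the 8 arrays of a study of NCI-H1975, an established human lung adenocarcinoma cell line that carries mutant EGFR. The arrays were chosen by their labels: 2 arrays of cells given 1 µM alpelisib alone and 2 arrays of cells given the solvent DMSO alone, all after 24 hours. In each group 1 array had no L-histidinol and 1 had 2 mM L-histidinol, an amino acid alcohol that blocks histidine charging of its tRNA, so the comparison consists of 2 array pairs matched for L-histidinol. The other 4 arrays held cells given 10 nM osimertinib, a covalent inhibitor of mutant EGFR, alone or together with 1 µM alpelisib, again without and with L-histidinol. All cells grew in the same serum-containing medium, and only this 1 cell line, 1 alpelisib dose and 1 time were measured. Total RNA was hybridised to Affymetrix 3′ expression arrays, and the deposited values are linear intensities, used here as log2. Each condition had 1 array and nothing says that the arrays came from separate cultures. The p-values therefore rest on the spread between arrays, which may be technical. It was estimated from all 8 arrays after the mean difference between the L-histidinol backgrounds was taken out. It includes any true difference in drug effects between these backgrounds. Values for 4 arrays are given in the order vehicle, vehicle with L-histidinol, alpelisib, alpelisib with L-histidinol, and arrays without L-histidinol are called plain.

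Alpelisib inhibits the alpha isoform of phosphoinositide 3-kinase (PI3K), the lipid kinase that receptors such as EGFR and ERBB3 and the IRS adaptors use to activate AKT and mTORC1. AKT keeps FOXO transcription factors out of the nucleus, so FOXO target genes, among them receptors and adaptors at the top of the pathway, are known to rise when the pathway is blocked. mTORC1 is known to hold TFEB, a regulator of lysosome and autophagy genes, in the cytoplasm, and to promote ribosome production, nucleotide synthesis and the amino acid enzymes controlled by ATF4.

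Median intensities of the arrays lay between 21.8 and 22.4. The submitters' RMA processing equalises the distributions of the arrays, so these medians do not measure the hybridised signal. The 3′ to 5′ signal ratio of ACTB, a sign of RNA integrity, was 1.07 and 1.11 in the vehicle arrays and 1.04 and 1.10 in the alpelisib arrays. Markers of a lung epithelial line were present, with EPCAM between 12.1 and 12.2 on the log2 scale in the 4 arrays and the lung factor NKX2-1 between 7.0 and 8.57, although the surfactant gene SFTPB (5.96 to 6.04) lay near the median of all genes (5.80). Of 12 measured markers of other cell types, 5 were below the lower quartile of gene levels (3.79) in all 4 arrays, among them the leukocyte gene PTPRC (2.80 to 2.88) and the endothelial gene CDH5 (2.31 to 2.58). Other markers of the same cell types lay above it, with CD3E at 4.58 to 4.97, VWF at 3.87 to 4.18 and PECAM1 at 5.10 to 5.25. In all 7 of the 12 were under 5 in the 4 arrays. The summed intensity of the 12 was 622 and 535 in the vehicle arrays and 731 and 663 in the alpelisib arrays. COL1A1 made up the largest part of it, with linear intensities of 374, 278, 442 and 397. In all 4 arrays COL1A1 lay above the upper quartile of gene levels (8.03 on the log2 scale). COL1A2 (0.51 ± 0.13 SE, adjusted p = 0.0247) and COL1A1 (0.38 ± 0.09, adjusted p = 0.0210), collagen genes on that list, were called higher. COL1A2 was -0.22 at its one probe set not marked for cross-hybridization. With the mean of probe sets 0 markers were called. With marked probe sets left out 0 were called as well, but COL1A1 had no value there and could not be called. The part of other cells in the results was not tested. In bulk RNA, fewer cells of a kind and less RNA per cell cannot be told apart.

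Of 19775 genes, 2267 (11.5%) had an adjusted p under 0.05 by limma and are termed called, 1401 (7.08%) higher and 866 (4.38%) lower with alpelisib. Most differences were small: the median size among called genes was 0.41 on the log2 scale, 1579 genes differed by under 0.5, and 58 (0.293%) differed at least 2-fold, all of them higher. Both alpelisib arrays lay above both vehicle arrays for 4071 genes (20.6%) and below them for 4003 (20.2%). All 2267 called genes had the same sign in both array pairs. Across the 11627 genes with a mean level of at least 5, the differences of the plain pair and of the L-histidinol pair correlated with r = 0.760 (0.567 over all genes), a description across genes that are not independent replicates. The number called rested on single arrays: it was 600 without the plain alpelisib array, 175 without the alpelisib array with L-histidinol and 1171 without the plain vehicle array. When each array was centred on its own median, which moved the median gene by -0.08, the split became 953 higher and 2000 lower.

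**Figure D1:**
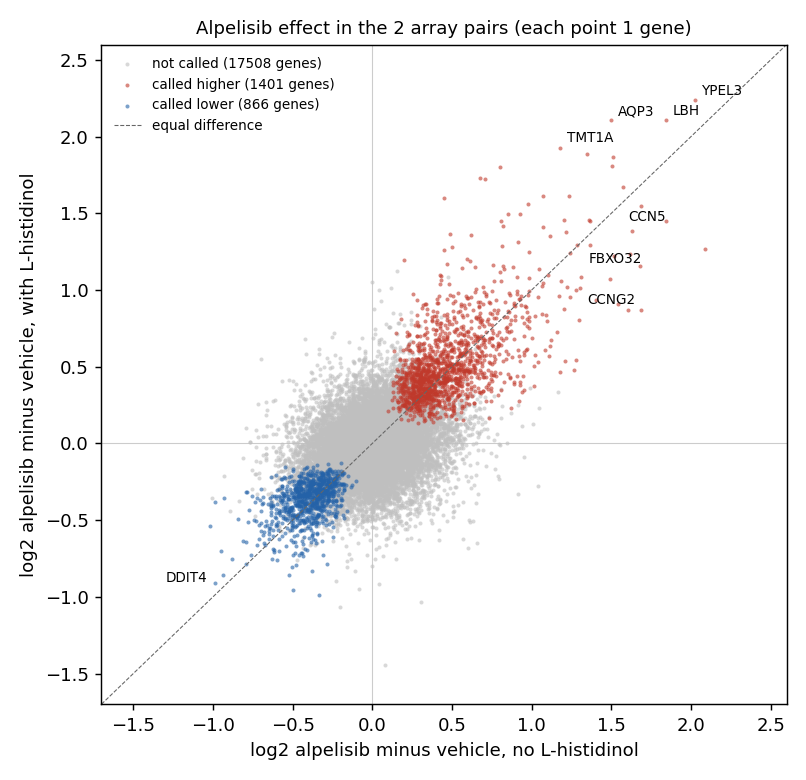
Log2 difference of alpelisib minus vehicle without L-histidinol (horizontal axis) and with it (vertical axis), each point 1 of 19775 genes, grey where not called, red where called higher and blue where called lower; the dashed line marks equal differences. Called genes lie in the upper right and lower left corners, and the upper right arm reaches above 2 (YPEL3) while the lower left arm ends near -1.

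The largest rise was in YPEL3, a small zinc-binding protein linked to growth arrest. Its log2 level was 5.83, 5.64, 7.85 and 7.87, so both alpelisib arrays were far above both vehicle arrays, and the difference was 2.13 ± 0.08 (SE, 2 array pairs; adjusted p = 5.6e-07). Its relatives YPEL2 (1.62 ± 0.16), YPEL5 (1.09 ± 0.09) and YPEL1 (0.76 ± 0.16) were also called higher, and YPEL4 was not (-0.04 ± 0.14, adjusted p = 0.910); the last 3 were named after their values were seen. LBH, a transcriptional cofactor, measured 6.13, 5.25, 7.97 and 7.36 and differed by 1.97 ± 0.10 (adjusted p = 3.4e-06). The groups did not overlap for either gene.

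The other genes among the 15 largest rises were a mixed set of membrane, adhesion and immune genes. AQP3, a water and glycerol channel, measured 6.93, 5.34, 8.43 and 7.45, a difference of 1.80 ± 0.19, but its other probe sets gave 0.32 and 0.60. GBP2, an interferon-inducible guanylate-binding protein, measured 5.22, 4.71, 6.73 and 6.52 (1.66 ± 0.12), with both alpelisib arrays clear of both vehicle arrays. NEDD9, a scaffold of focal adhesions, rose by 1.62 ± 0.13, LEMD1 by 1.62 ± 0.10 and TMEM255A by 1.69 ± 0.15. CCN5, a secreted matricellular protein, was the most abundant of the set at 9.10, 9.07, 10.73 and 10.45 (1.51 ± 0.07, adjusted p = 1.0e-06). ATG9B, a lipid scramblase of the autophagy pathway, measured 4.99, 5.17, 6.83 and 6.62 (1.65 ± 0.14). BEAN1 (1.68 ± 0.27), the chloride channel protein CLIC3 (1.42 ± 0.13), the caspase-1 inhibitor CARD16 (1.41 ± 0.10) and the methyltransferase TMT1A (1.55 ± 0.19) completed it besides YPEL2 and KLHL24. The 3 other probe sets of TMT1A gave -0.05, -0.02 and -0.02, and its call was lost with the mean of its probe sets. Of the 15, BEAN1 lost its call without the alpelisib array with L-histidinol, and no other lost it when any 1 array was left out.

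The falls were smaller. DDIT4, also known as REDD1, an inhibitor of mTORC1 that stress induces, measured 9.56, 11.21, 8.62 and 10.35. It was higher with L-histidinol in both groups, so the groups overlap, but it was lower with alpelisib within each pair and the difference was -0.90 ± 0.09 (adjusted p = 0.000244). POLR3G, a subunit of RNA polymerase III, measured 7.76, 7.85, 6.88 and 7.09 (-0.82 ± 0.12), with no overlap. The histone gene H2BC11 differed by -0.95 ± 0.14, the germ-cell gene TEX15 by -0.79 ± 0.09, the ubiquinone synthesis enzyme PDSS1 by -0.72 ± 0.09 (0.16 at its other, dimmer probe set), the glutathione-degrading enzyme CHAC2 by -0.69 ± 0.09 and the nucleoside transporter SLC29A1 by -0.68 ± 0.11. The replication clamp loader subunit DSCC1 (-0.74 ± 0.18), the chaperone HSPA4L (-0.72 ± 0.15), the survival factor DDIAS (-0.69 ± 0.12) and the neutrophil chemokine CXCL5 (-0.69 ± 0.13) also fell, as did CCDC138, KBTBD8, ABCC9 and SCLT1 (-0.67 to -0.83). The 4 other, dimmer probe sets of ABCC9 gave -0.57 to -0.01. Among these 15, DDIT4, TEX15 and PDSS1 stayed called with any 1 array left out. The others lost the call without an alpelisib array, and DSCC1, HSPA4L and KBTBD8 also without the plain vehicle array.

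**Figure D2:**
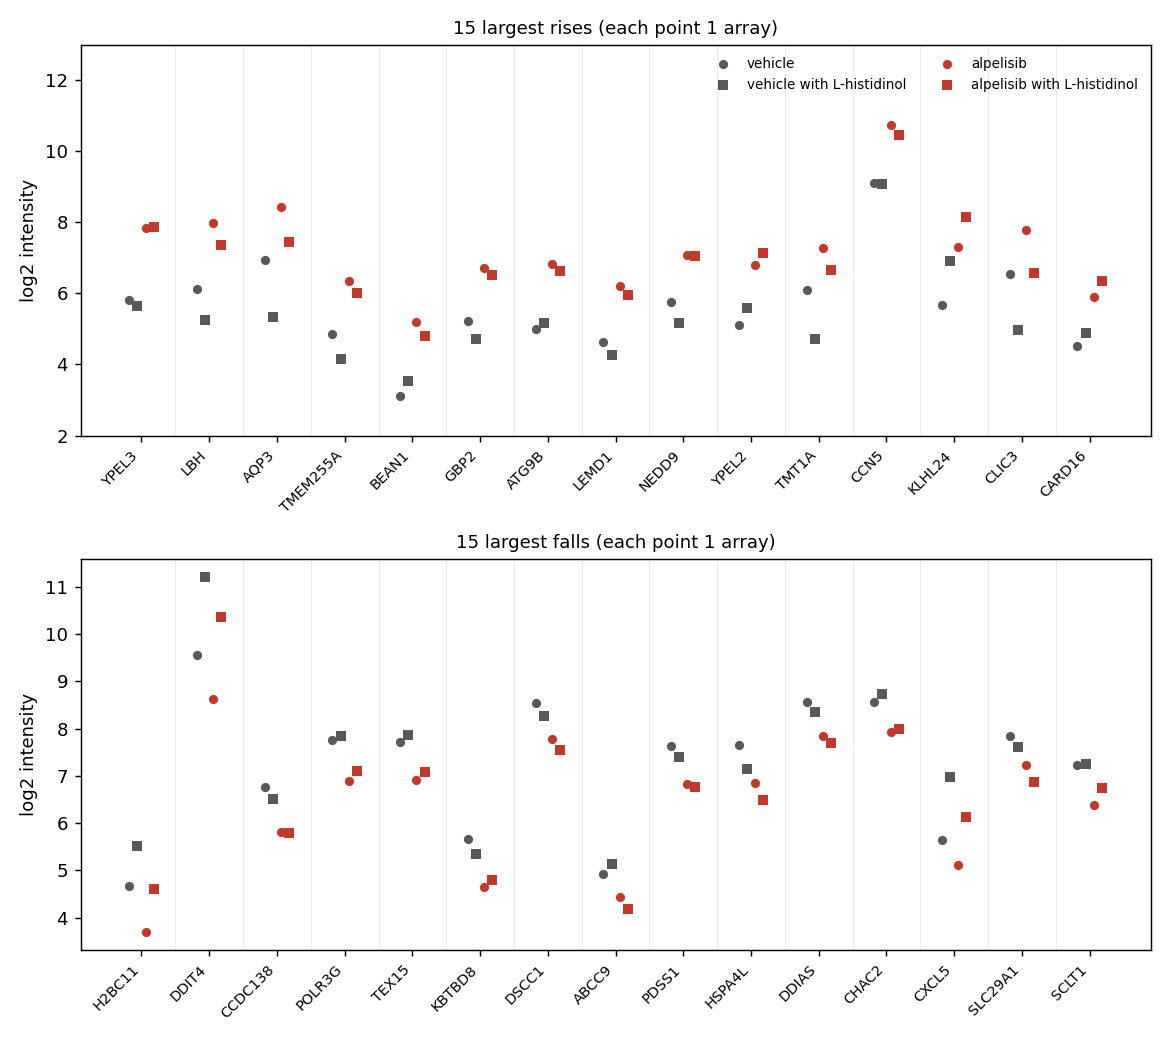
Log2 intensity of the 15 largest rises (top) and the 15 largest falls (bottom) in each of the 4 arrays, grey for vehicle and red for alpelisib, circles without and squares with L-histidinol, each point 1 array. For the rises the red points lie above the grey ones with L-histidinol kept the same; for DDIT4 and CXCL5 the difference between squares and circles is wider than that between colours.

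Of 22 measured genes that FOXO factors are known to induce, 13 were called higher and none lower, with a median difference of 0.45 against -0.002 over all genes. FBXO32, a ubiquitin ligase subunit also known as atrogin-1, measured 9.22, 9.50, 10.51 and 10.80 (1.29 ± 0.07, adjusted p = 3.4e-06). CCNG2, a cyclin linked to cell cycle exit, measured 7.06, 7.53, 8.34 and 8.53 (1.14 ± 0.08, adjusted p = 5.4e-05). In both genes the alpelisib arrays were above both vehicle arrays. KLHL24, a ubiquitin ligase adaptor, rose by 1.43 ± 0.17 and PDK4, which restrains glucose oxidation, by 1.20 ± 0.27. Other called members were the receptors and adaptor described next and the death ligand TNFSF10 (0.79), which lay below 4 in both vehicle and both alpelisib arrays. The pocket protein RBL2 (0.58), the factors KLF2 (0.52) and BCL6 (0.44), catalase (CAT, 0.42) and the PI3K inhibitor PIK3IP1 (0.42) were also called. TXNIP (0.37 ± 0.14, adjusted p = 0.112), CDKN1B (0.21 ± 0.07, adjusted p = 0.0746), BCL2L11 (0.25) and SESN1 (-0.10) were not called. The count was 9 without the plain alpelisib array and 6 without the alpelisib array with L-histidinol.

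Receptors and adaptors that signal to PI3K were called higher for 7 of 20 members and lower for 1, with a median of 0.21. ERBB3, the kinase-impaired receptor that couples ERBB signalling to PI3K, measured 8.40, 8.35, 9.25 and 9.22 (0.86 ± 0.07, adjusted p = 8.6e-05). The alpelisib arrays were above both vehicle arrays. IRS2, the insulin receptor substrate, measured 7.41, 8.39, 8.39 and 9.22, so the plain alpelisib array matched the vehicle array with L-histidinol, and differed by 0.90 ± 0.12 (adjusted p = 0.00116). The insulin receptor INSR (0.62 ± 0.09), FGFR3 (0.62 ± 0.15), ERBB2 (0.56 ± 0.07), GAB1 (0.42) and GAB2 (0.40) rose, and FGFR4 fell (-0.47 ± 0.12). EGFR itself differed by 0.03 ± 0.07 (adjusted p = 0.849). The higher count was 4 without the plain alpelisib array and 2 without the alpelisib array with L-histidinol.

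Among 25 components of the PI3K, AKT and mTOR pathway, 5 were called higher and 1 lower, and the median was -0.005. The phosphoinositide phosphatase INPP4B, which removes a product of PI3K, measured 6.69, 6.47, 7.41 and 7.28 (0.77 ± 0.11). PIK3CD, the delta catalytic subunit, measured 5.94, 5.95, 6.47 and 6.41 (0.50 ± 0.10, adjusted p = 0.00811). For both genes the groups did not overlap. PIK3IP1 (0.42), the mTOR-binding protein DEPTOR (0.41 ± 0.11) and the mTORC2 subunit RICTOR (0.38 ± 0.07) also rose, and AKT1S1, an mTORC1 inhibitor, fell (-0.33 ± 0.08). The beta catalytic subunit PIK3CB (0.06), AKT1 (-0.02), MTOR (-0.19) and the regulatory subunit PIK3R1 (-0.31 ± 0.11, adjusted p = 0.106) were not called. The higher count was 3 without the plain vehicle array, 2 without the plain alpelisib array and 0 without the alpelisib array with L-histidinol.

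Lysosome genes were called higher for 8 of 18 members and lower for none, with a median of 0.20. The 250 bases before the start of 3 of these 8 genes are shown because they hold CACGTG, the palindrome at the core of the motif that TFEB and its relatives bind and that MYC binds as well (RefSeq, GRCh38.p14, 5′ to 3′ on the gene's strand, motif in capitals). CTSA lies at chr20:45891085-45891334 (+), CTSD at chr11:1763928-1764177 (-) and NEU1 at chr6:31862822-31863071 (-).
CTSA: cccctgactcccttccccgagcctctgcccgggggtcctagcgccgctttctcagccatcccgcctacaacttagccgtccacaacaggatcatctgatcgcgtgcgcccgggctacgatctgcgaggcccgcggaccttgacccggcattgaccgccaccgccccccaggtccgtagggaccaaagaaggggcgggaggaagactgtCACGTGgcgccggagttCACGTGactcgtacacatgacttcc
CTSD: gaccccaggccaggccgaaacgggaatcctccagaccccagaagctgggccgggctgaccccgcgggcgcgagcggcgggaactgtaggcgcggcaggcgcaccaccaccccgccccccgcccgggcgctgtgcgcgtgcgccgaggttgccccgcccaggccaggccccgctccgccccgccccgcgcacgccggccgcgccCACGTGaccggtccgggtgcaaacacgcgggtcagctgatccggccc
NEU1: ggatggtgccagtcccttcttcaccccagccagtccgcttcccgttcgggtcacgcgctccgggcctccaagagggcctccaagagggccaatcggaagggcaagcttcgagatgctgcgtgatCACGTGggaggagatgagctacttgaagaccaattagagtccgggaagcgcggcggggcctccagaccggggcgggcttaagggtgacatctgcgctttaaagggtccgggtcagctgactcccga
The motif occurred 2 times before CTSA and 1 time before each of the other genes. It was present in 6 of the 13 lysosome genes that have such a window (46.2%), against 1204 of 15384 genes (7.83%). It was in 94 of the 1128 windows of all genes called higher (8.33%) and in 79 of the 725 windows of all genes called lower (10.9%). A match is a description of letters, not a binding site, and LAMP1, MCOLN1 and ATP6V0D1 hold it without being called. The longer TCACGTGA was in 4 of the 13 windows, 1 of them of a called gene. CACGTG was in 1 of 10 windows of the MYC and ribosome biogenesis list (10.0%). GTAAACA was in 3 of 19 FOXO target windows (15.8%, against 2.25% of genes). TTTCCCGC was in 8 of 24 G1/S windows (33.3%, against 1.86%). No list member with either of these last strings was called.

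CTSA, a carboxypeptidase that protects other lysosomal enzymes, measured 10.50, 10.66, 11.03 and 11.00 (0.43 ± 0.08, adjusted p = 0.00652). CTSD, an aspartic protease, measured 8.23, 8.59, 8.98 and 8.94 (0.54 ± 0.10), and the sialidase NEU1 7.89, 8.01, 8.17 and 8.26 (0.26 ± 0.07, adjusted p = 0.0415). In all 3 the alpelisib arrays were above the vehicle arrays by less than 1 on the log2 scale. The largest change of the list was in CTSH, a cysteine protease that processes surfactant protein, at 8.64, 8.33, 9.55 and 9.31 (0.94 ± 0.08, adjusted p = 8.9e-05). CTSB, another cysteine protease (0.57 ± 0.07), the cholesterol carrier NPC2 (0.57 ± 0.06), TPP1 (0.48) and HEXA (0.28) rose, and the proton pump subunits ATP6V1A (-0.05) and ATP6V1H (-0.09) and the galactosidase GLA (-0.28) were not called. The count was 3 without either alpelisib array and 5 without the plain vehicle array.

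Autophagy genes and the TFEB circuit were called higher for 7 of 18 members, with a median of 0.25. The initiating kinase ULK1 measured 6.11, 6.47, 6.78 and 7.23 (0.72 ± 0.09), and the phosphoinositide-binding protein WIPI1 measured 6.69, 7.12, 7.57 and 7.68 (0.72 ± 0.13). Both were higher in the alpelisib arrays without overlap. GABARAPL1 (0.63 ± 0.11), GABARAPL2 (0.32), ATG2A (0.48 ± 0.07), ATG14 (0.30) and FNIP2 (0.36) also rose. TFEB itself (-0.10 ± 0.13), MAP1LC3B (-0.08) and SQSTM1 (0.27) were not called. The count was 2 without the plain alpelisib array and 1 without the alpelisib array with L-histidinol.

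Of 15 members of the MYC and ribosome biogenesis list 10 were called lower and none higher, with a median of -0.37. NOP16 (-0.57 ± 0.13), WDR43 (-0.54 ± 0.10), UTP20 (-0.53 ± 0.10) and RRP12 (-0.52 ± 0.10) are nucleolar proteins of ribosome assembly. NOP16 measured 10.44, 10.26, 9.84 and 9.72, and WDR43 8.46, 8.42, 7.77 and 8.02, each with no overlap. The RNA polymerase I subunits POLR1B (-0.46) and POLR1A (-0.42), NOP58, PES1, NCL and NPM1 (-0.16 to -0.39) also fell, whereas MYC measured 10.89, 11.42, 10.90 and 11.39 (-0.01 ± 0.07, adjusted p = 0.975). Another probe set gave 0.40 for RRP12. The count was 1 without the plain alpelisib array or the plain vehicle array and 0 without the alpelisib array with L-histidinol.

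Of 15 pentose phosphate and nucleotide synthesis genes 7 were called lower and none higher (median -0.26): CTPS1 (-0.49 ± 0.13), which makes CTP, RPIA (-0.48 ± 0.09), PPAT (-0.43 ± 0.11; 0.06 at its unmarked probe set) and PAICS (-0.41) of purine synthesis, DHODH (-0.43 ± 0.10) and CAD (-0.32) of pyrimidine synthesis, and GART (-0.28). The count was 0 without either alpelisib array or the plain vehicle array and 3 without either osimertinib array. Of 17 cytosolic aminoacyl-tRNA synthetases 6 were called lower (median -0.155), led by FARSA (-0.46 ± 0.11), VARS1 (-0.40 ± 0.08) and FARSB (-0.38 ± 0.10). FARSB was 0.0047 with marked probe sets left out, on a much dimmer probe set. The histidyl-tRNA synthetase HARS1 measured 9.79, 9.68, 9.47 and 9.38 (-0.31 ± 0.07, adjusted p = 0.0171), lower with alpelisib in both pairs. The synthetase count was 1, 0, 2, 4 and 4 without the plain alpelisib, the L-histidinol alpelisib, the plain vehicle and either osimertinib array.

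Of 14 amino acid and one-carbon synthesis genes 6 were called lower (median -0.23): PSAT1 (-0.38 ± 0.06), PSPH (-0.30 ± 0.09), ALDH18A1 (-0.30 ± 0.07), MTHFD2 (-0.26 ± 0.05), GOT1 and SHMT2 (both -0.24). PSAT1, of serine synthesis, measured 10.19, 11.76, 9.75 and 11.43, so the 2 L-histidinol arrays lay farther from the plain arrays than alpelisib from vehicle. ASNS, asparagine synthetase, was higher with alpelisib in the plain pair (9.25 and 9.47) and lower in the L-histidinol pair (11.84 and 11.44), and was not called (-0.09 ± 0.17). Both alpelisib arrays were needed for these calls, since leaving out either left 0, leaving out the L-histidinol vehicle array left 3 lower and gave 2 higher, and leaving out an osimertinib array left 4. Among 12 amino acid transporters SLC7A5 (-0.36 ± 0.06) and its partner SLC3A2 (-0.35 ± 0.08) fell and SLC38A2 rose (0.26 ± 0.07); none was called without either alpelisib array. Of 15 genes of the ATF4 stress response, DDIT4 and CEBPG (-0.35 ± 0.09) fell and NUPR1 rose (0.87 ± 0.25, adjusted p = 0.0490), while ATF4 differed by -0.02 ± 0.09. Without either alpelisib array 1 member was lower and 0 were higher, without the plain vehicle array 4 and 0, and without the L-histidinol vehicle array 1 and 2.

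None of 16 sterol synthesis genes was called (median 0.11; 1 was higher without the L-histidinol vehicle array). Of 11 fatty acid synthesis genes the regulator SREBF1 (-0.43 ± 0.12), FASN (-0.39 ± 0.09) and ACACA (-0.30 ± 0.07) fell, and these calls were lost without either alpelisib array; 2 were left without the plain vehicle or an osimertinib array and 1 without the L-histidinol vehicle array. Of 19 glycolysis genes HK2, a hexokinase, was called, at 8.89, 9.06, 8.33 and 8.68 (-0.47 ± 0.08, adjusted p = 0.00492), with both alpelisib arrays lowest. The list's median was -0.13, the glucose transporter SLC2A1 differed by 0.02 ± 0.09, and with 1 array left out 0 to 5 members were called lower. On the list of 10 hypoxia genes BNIP3L rose (0.49 ± 0.06) and EGLN3 (-0.55 ± 0.13), BNIP3 (-0.35 ± 0.09) and P4HA1 (-0.27 ± 0.07) fell; with 1 array left out 0 to 3 were higher and 0 to 4 lower.

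Of the G1/S and mitosis lists 7.41% and 8.70% of members were called, all of them lower. Over all genes 4.38% were called lower, and 832 of the 11627 with a mean level of at least 5. All 27 G1/S and DNA replication genes had a negative difference (median -0.33), and 2 were called: MCM10 (-0.65 ± 0.19, adjusted p = 0.0491), a replication initiation factor, and the phosphatase CDC25A (-0.55 ± 0.11, adjusted p = 0.00828). CDC25A measured 7.95, 7.56, 7.54 and 6.87, with both alpelisib arrays lowest. The thymidylate synthase gene TYMS measured 11.02, 9.85, 10.67 and 9.54 (-0.33 ± 0.17), again with a wider gap between L-histidinol and plain arrays than between drug and vehicle. Of 23 mitosis genes PLK1 (-0.62 ± 0.16) and CDC20 (-0.57 ± 0.12) were called, and MKI67 (-0.51 ± 0.16, adjusted p = 0.0661) was not. These counts depended on the spread taken from the other arrays: without either combination array 21 G1/S and 15 mitosis genes were called lower, and with the 4 alpelisib and vehicle arrays alone 23 and 20. Without 1 alpelisib array 0 or 1 G1/S and 0 mitosis genes were called, without either osimertinib array 4 and 2, without the plain vehicle array 2 and 0, and without the L-histidinol vehicle array 2 and 17.

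Of 13 G1 cyclins and CDK inhibitors, 4 were called higher and none lower. CDKN1C, also known as p57, measured 6.54, 7.23, 7.43 and 7.91 (0.79 ± 0.12). The alpelisib arrays were highest. CDKN2B, or p15 (0.61 ± 0.11), RBL2 (0.58 ± 0.08) and CDKN1A, or p21 (0.49 ± 0.11), also rose, and CCND1 measured 9.53, 9.74, 9.60 and 9.66 (adjusted p = 0.993). None of these 4 was called without the alpelisib array with L-histidinol. On the list of 11 p53 targets TP53INP1 measured 4.18, 4.30, 5.54 and 5.59 (1.33 ± 0.12, adjusted p = 0.000112), with the alpelisib arrays clear of vehicle, although its 2 dimmer probe sets gave -0.17 and -0.07 and the call was lost with the mean of its probe sets. PHLDA3 rose (0.47 ± 0.08), whereas MDM2 (-0.27) and GDF15 (0.05) were not called; with CDKN1A that made 3 higher, of which 1 was left without the alpelisib array with L-histidinol and 2 without either of the plain alpelisib and vehicle arrays.

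**Figure D3:**
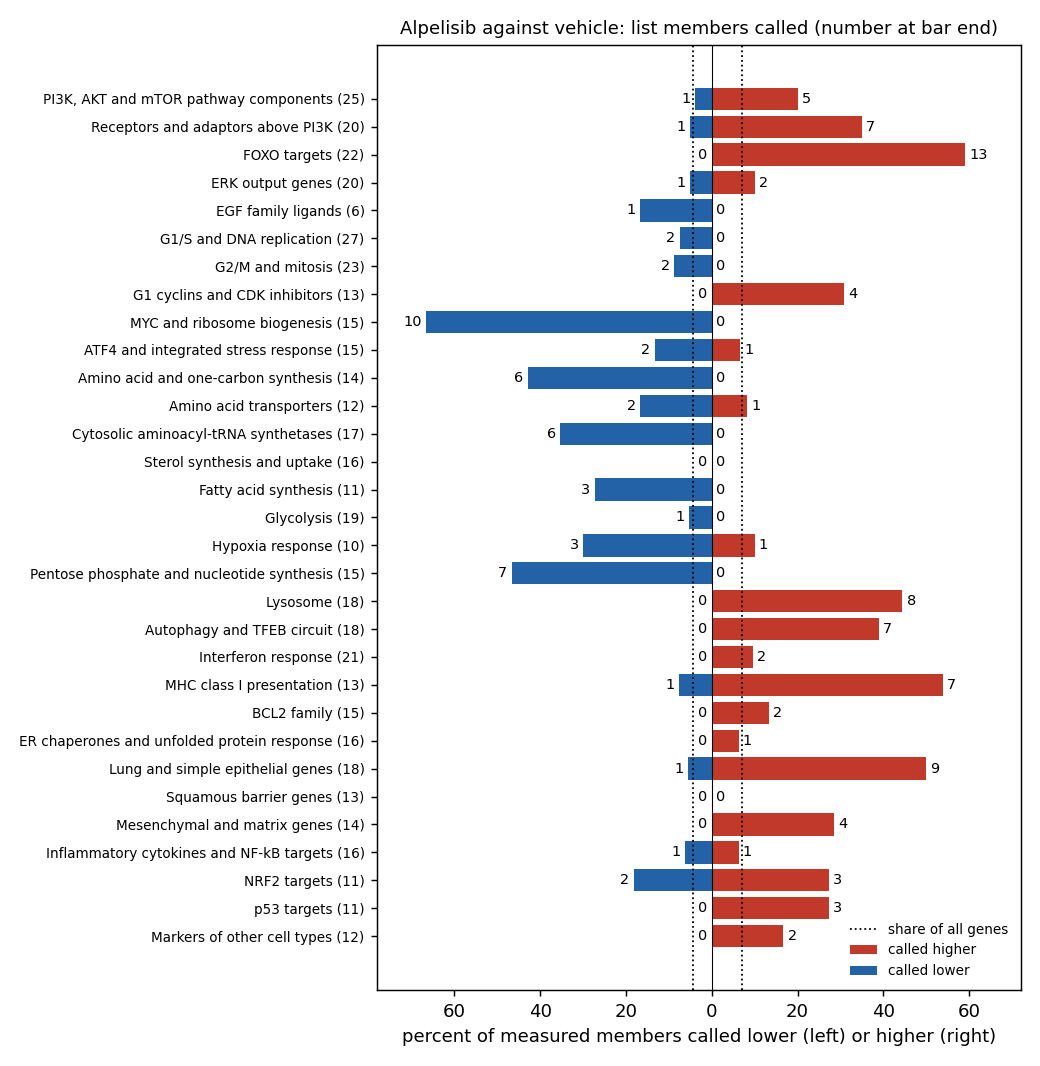
Percent of the measured members of 31 gene lists called higher (red, to the right) or lower (blue, to the left) with alpelisib, with the number of members called at the end of each bar and the number measured in parentheses; dotted lines mark 7.08% higher and 4.38% lower over all genes. FOXO targets (13 of 22), lysosome (8 of 18) and MHC class I genes (7 of 13) reach farthest to the right, with lung and simple epithelial genes (9 of 18), and ribosome biogenesis (10 of 15) reaches farthest to the left. The dotted lines take in genes with a mean level under 5, where few members of most lists lie. Of the 11627 genes at 5 or more, 1327 were called higher and 832 lower (18.6%).

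Genes of the lung and simple epithelial state were called higher for 9 of 18 members and lower for 1 (median 0.24). NKX2-1, the lung lineage factor, measured 8.01, 7.0, 8.57 and 8.14 (0.86 ± 0.12, adjusted p = 0.00161). The epithelial factor ELF3 measured 7.0, 6.60, 7.66 and 7.52 (0.79 ± 0.10), and the mucin MUC1 9.19, 8.91, 9.71 and 9.66 (0.64 ± 0.07). In all 3 the alpelisib arrays were highest. CLDN4 (0.43 ± 0.07), KRT19, KRT8, ESRP1, CLDN7 and KRT7 (0.24 to 0.40) also rose, FOXA2 fell (-0.42), and EPCAM (0.02) and CDH1 (0.18) were not called. Of 14 mesenchymal and matrix genes 4 rose, FN1 (0.56 ± 0.06), THBS1 (0.56 ± 0.12), CCN1 (0.48 ± 0.07) and TGFBI (0.20 ± 0.04), and VIM (0.02) and ZEB1 (0.01) were not called. None of 13 squamous genes was called. The higher epithelial and matrix counts were 5 and 2 without the plain alpelisib array, 2 and 1 without the alpelisib array with L-histidinol, and 10 and 2 without the L-histidinol vehicle array.

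MHC class I antigen presentation genes were called higher for 7 of 13 members and lower for 1 (median 0.29). NLRC5, the transactivator of these genes, measured 6.56, 7.18, 7.35 and 7.49 (0.55 ± 0.12), highest in the alpelisib arrays. The peptide-loading protein TAPBP (0.36 ± 0.08), HLA-C (0.34 ± 0.07), ERAP1, HLA-E, HLA-F and HLA-G (0.29 to 0.34) also rose and the peptide transporter subunit TAP2 fell (-0.37 ± 0.10). HLA genes resemble each other, and probe sets may take signal from more than 1 of them. No member was called without either alpelisib array, and 1 was without the plain vehicle array. Of 21 interferon response genes IFITM1 (9.35, 10.02, 10.46 and 10.66; 0.88 ± 0.11) and IFITM3 (0.26 ± 0.07) rose, and the list's median was 0.24 in the plain pair and -0.15 in the L-histidinol pair. Over both pairs the interferon median was 0.05. It was -0.13 without the plain vehicle array and 0.20 without the L-histidinol vehicle array. Which interferon members were called, higher or lower, changed with the array left out. IFITM3 lost its call without either alpelisib, either osimertinib or the plain vehicle array.

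Inflammatory, BCL2 family and chaperone genes held 1 or 2 calls each, or 12.5%, 13.3% and 6.25% of their members. These shares were near or below the 11.5% of all genes and below the 18.6% of genes with a mean level of at least 5. NRF2 targets held 5 of 11 (45.5%). PTGS2, the inducible cyclooxygenase, measured 6.66, 6.27, 7.41 and 7.27 (0.87 ± 0.19), highest in the alpelisib arrays. CXCL5 was the one inflammatory gene of 16 called lower, and CXCL2 and CXCL3 were lower in both pairs without a call. Of the NRF2 targets the reductases AKR1C3 (0.72 ± 0.14) and AKR1B10 (0.55 ± 0.12) and heme oxygenase HMOX1 (0.65 ± 0.07) rose, and GCLM (-0.33 ± 0.07) and SRXN1 (-0.29) fell. Of 15 BCL2 family genes BMF (0.41 ± 0.11) and BOK (0.35 ± 0.09) rose, BOK without support from its unmarked probe set (-0.27). BMF was not called under median centring, quantile normalization or without the mean-variance trend. Of 16 chaperone genes DNAJB9 rose (0.37 ± 0.09). With 1 array left out, the higher counts ranged from 0 to 3 for inflammatory, 1 to 4 for NRF2, 0 to 3 for BCL2 and 0 to 3 for chaperone genes. Leaving out either alpelisib array gave 0 inflammatory and 0 chaperone genes higher and 1 NRF2 target higher.

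Genes that read out ERK signalling, the other main branch below EGFR, differed between alpelisib and osimertinib. The drug contrasts share the vehicle or the alpelisib arrays, so each is given by its own values. Against vehicle osimertinib was called for 6011 genes (30.4%; 16.4% higher, 14.0% lower), and osimertinib minus alpelisib for 2185 (11.0%; 5.54% higher, 5.51% lower). Doses differed, at 10 nM and 1 µM. Of 20 ERK output genes alpelisib moved 3: EGR1 (0.93 ± 0.25) and MAFF (0.57 ± 0.11) rose and FOSL1 (-0.39 ± 0.09) fell. Osimertinib was lower than alpelisib for 19 of the 20. DUSP6, the ERK phosphatase, measured 7.47, 8.50, 7.93 and 8.47 (0.21 ± 0.18 against vehicle, adjusted p = 0.559), with overlapping groups. Its osimertinib minus alpelisib difference was -4.20, and that of the ETS factor ETV5 was -3.22, of EGR1 -2.76, of FOSL1 -2.50 and of MYEOV -2.37. EGR1 and MAFF were not called without either alpelisib array or the plain vehicle array, and FOSL1 not without either alpelisib or the L-histidinol vehicle array. Of 6 EGF family ligands TGFA fell with alpelisib (-0.36 ± 0.09), and it was lower still with osimertinib (-1.45 against alpelisib); its alpelisib call was lost without either alpelisib, either osimertinib or either vehicle array.

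For some of the largest rises the direct difference between the drugs did not pass the test. The osimertinib minus alpelisib difference was 0.07 ± 0.18 (95% interval) for YPEL3, -0.01 ± 0.22 for LBH and -0.09 ± 0.31 for ATG9B. Higher with osimertinib than with alpelisib were MAP7D2 (2.23), CLEC7A (2.04), IGFBP5 (1.94), AKR1B10 (1.92) and CLIC3 (1.86), the 5 largest of that direction. DDIT4 was -0.12 with osimertinib against -0.90 with alpelisib, and the direct difference was 0.78 ± 0.20 (95% interval, limma, adjusted p = 0.000348). PIK3CD (-0.71 ± 0.21), INPP4B (-0.55 ± 0.24), IRS2 (-0.54 ± 0.26), PTGS2 (-0.89 ± 0.41) and NPC2 (-0.35 ± 0.12) were lower with osimertinib than with alpelisib, each past the threshold (limma, adjusted p = 0.000962 to 0.0153). Whole lists did not all go that way. Osimertinib minus alpelisib was called higher for 2 and lower for 3 of 25 PI3K, AKT and mTOR components (median -0.004). For the 22 FOXO targets 9 were higher and 1 lower (median 0.295), and for the 18 lysosome genes 6 and 2 (median 0.158).

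**Figure D4:**
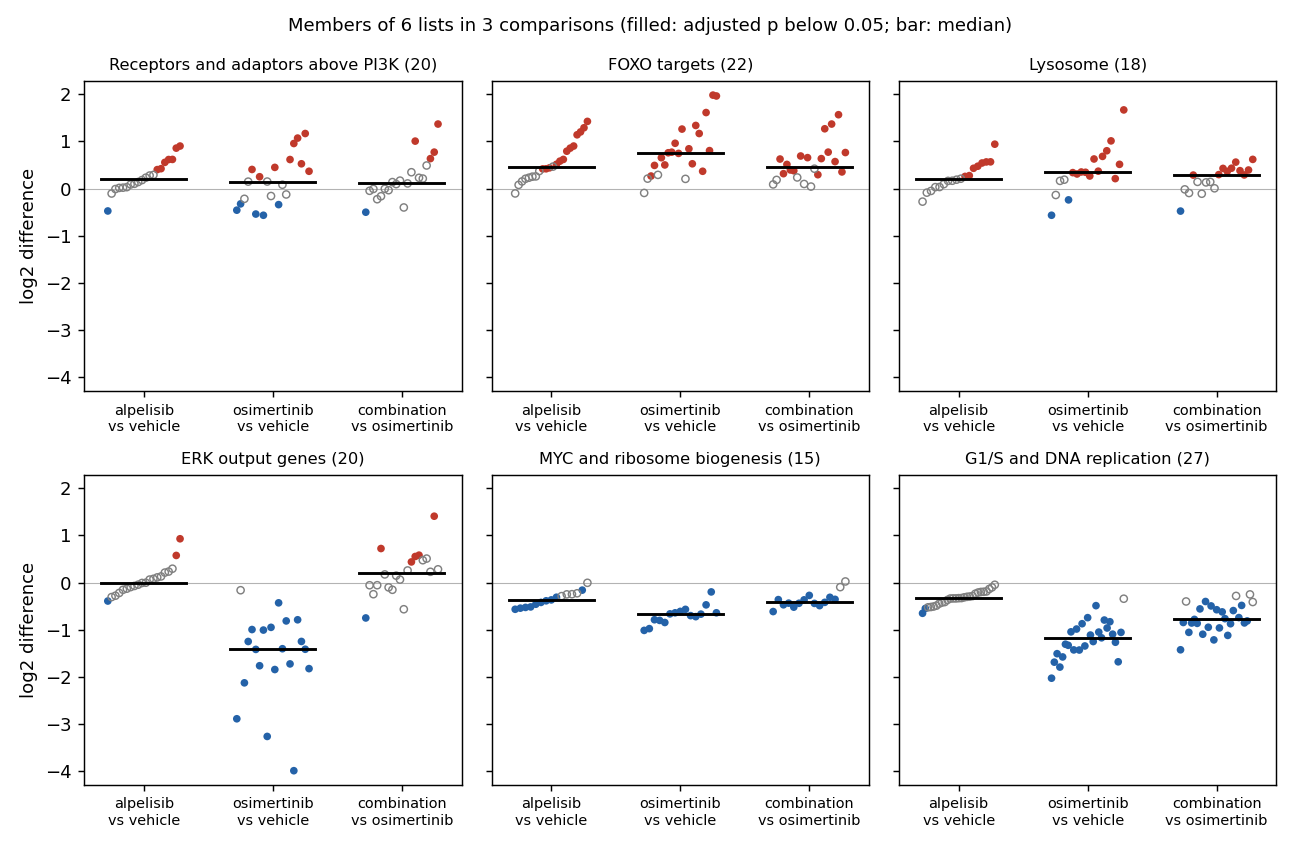
Log2 differences of the members of 6 lists for alpelisib against vehicle, osimertinib against vehicle and the combination against osimertinib, each point 1 gene in the order of its alpelisib difference, filled where the adjusted p was below 0.05 (red higher, blue lower), black bars for medians. ERK output genes lie around 0 with alpelisib (median -0.01) and far below with osimertinib (median -1.41), while FOXO targets have positive medians in all 3 (0.45, 0.75 and 0.47).

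The effect of alpelisib was also measured in cells that received osimertinib, in 4 arrays that share none with the comparison above. Both effects come from 1 fit with the same residual spread and L-histidinol term for each gene, so their calls are not independent. Adding alpelisib to osimertinib was called for 2643 genes (13.4%), 1178 (5.96%) higher and 1465 (7.41%) lower. In all, 1246 genes were called in the same direction in both, 55.0% of the genes called with alpelisib alone and 47.1% of those called with osimertinib present, and 7 in opposite directions. Across the 11627 genes with a mean level of at least 5 the differences correlated with r = 0.743, as a description across genes. YPEL3 rose by 1.50, LBH by 1.11, ATG9B by 1.63, IRS2 by 1.37 and ERBB3 by 0.77 on adding alpelisib, and DDIT4 fell by 0.91. The 5 largest rises were THSD7A (1.83, and 0.93 with alpelisib alone), the noncoding EFCAB13-DT (1.80 and 0.85), ATG9B, TCIM (1.58 and 1.42) and PDK4 (1.57 and 1.20). With osimertinib alone 2 of these were dim, EFCAB13-DT at linear intensities of 13.8 and 13.4 and TCIM at 14.2 and 13.9. TCIM with the combination was 23.9 without and 74.2 with L-histidinol, so its rise was uneven. Its call with alpelisib alone was lost when 16 was added before log2. The 5 largest falls were MCM10 (-1.43 and -0.65), the kinetochore gene SPC25 (-1.28 and -0.49), CDCA7 (-1.28 and -0.39), EXO1 (-1.24 and -0.62) and UHRF1 (-1.22 and -0.34). With osimertinib present 23 of 27 G1/S genes and 20 of 23 mitosis genes were called lower, against 2 and 2 without it, and none of them was among the genes for which the difference between the effects passed the test.

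That difference between the effects of alpelisib with and without osimertinib was called for 6 genes (0.0303%; 1748 at an unadjusted p under 0.05). In 5 of them the effect of alpelisib was positive alone and smaller or of the opposite sign when osimertinib was present. FBXO32 rose by 1.29 alone and by 0.35 with osimertinib (difference -0.94 ± 0.09, adjusted p = 0.00503), from osimertinib levels of 11.27 and 11.43 that already lay above those with alpelisib alone. CCN5 went from 1.51 to 0.56, the transmembrane protein SMIM14 from 0.92 to 0.05, the actin-associated AFAP1L2 from 0.85 to -0.06 and myoglobin (MB) from 0.70 to -0.42. The nucleoside diphosphate kinase NME1, named after its value was seen, was -0.38 alone and -1.02 with osimertinib. None of the 6 was called without either alpelisib array or either osimertinib array. Between L-histidinol backgrounds the alpelisib effect differed for 0 genes by limma (0.00%; 998 at an unadjusted p under 0.05, and 278 after adjustment with the prior of its own fit), a test that took the pairs without and with osimertinib together, 2 for each L-histidinol background.

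**Figure D5:**
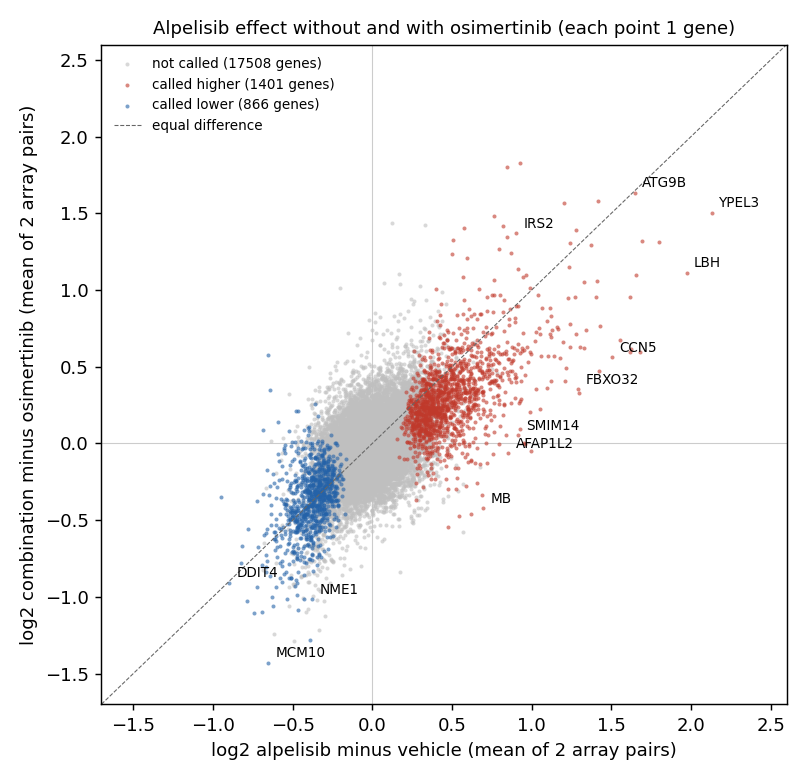
Log2 difference of alpelisib against vehicle (horizontal axis) and of the combination against osimertinib alone (vertical axis), each point 1 of 19775 genes, coloured by the call of alpelisib against vehicle; the dashed line marks equal differences. YPEL3, LBH, IRS2 and DDIT4 keep their side in both, while MB and AFAP1L2 lie to the right of 0 and below it.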

How the data were processed

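RNA from NCI-H1975 cells was hybridised to 8 arrays, 1 for each combination of drug and L-histidinol. Per the submitters' processing notes the values were made with RMA in affy (versions not given in the sources used here), which corrects background, equalises the distributions of the arrays and summarises probes. The deposited table holds linear intensity, with median intensities of 21.8 to 22.4, and log2 was taken of the deposited intensity without a pseudocount. RMA compresses differences of dim probe sets, and 1 array per condition limits the precision.

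Of 54675 probe sets 41091 had 1 gene symbol in the platform annotation, 1801 several and 11721 none, and 62 were controls. The probe set of highest mean stood for each of 19775 genes. limma 3.58.1 (R 4.3.3) fitted additive terms for L-histidinol and drug to all 8 arrays (3 residual degrees of freedom, prior 8.08) with eBayes and a mean-variance trend, and p-values were adjusted by Benjamini-Hochberg over all genes and called below 0.05. Errors after ± are standard errors unless called 95% intervals. The additive term pairs alpelisib and vehicle arrays by L-histidinol, as the labels give it.

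Named were the 15 largest rises and falls, up to 4 called members of each of 31 lists, 22 chosen genes, and the 5 largest each way in the other comparisons. The 15 largest each way were called, of one sign in both pairs, with a mean log2 of at least 5 in the higher of the 2 groups. BEAN1, ABCC9, H2BC11 and KBTBD8 reached that level there and not over all 8 arrays. List members beyond these were named after their values were seen. The members and lists were chosen with earlier results of these data known. Motifs were searched on both strands in the 250 bases before the start in RefSeq's promoter table (GRCh38.p14), which held 15384 of the genes. The fits were tested on simulated data. The alternatives were no trend, median centring, quantile normalization, a level filter of 5, adding 16 before log2, the mean of probe sets, leaving out probe sets marked _s_at or _x_at, no L-histidinol term, the 4 arrays alone, all 2-way terms and leaving out each array.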

Additional observations from a re-analysis of the deposited data

Results flagged for a closer look

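For 6 genes the effect of alpelisib with osimertinib present differed from its effect alone, by limma's test of that difference (SE and adjusted p given). MB differed by -1.12 ± 0.12 (0.00704), from 0.70 alone to -0.42 with osimertinib. CCN5 differed by -0.95 ± 0.09 (adjusted p = 0.00503), FBXO32 by -0.94 ± 0.09 (0.00503) and SMIM14 by -0.86 ± 0.09 (0.00503). AFAP1L2 differed by -0.92 ± 0.12 (0.0280) and NME1 by -0.64 ± 0.08 (0.0280), the one gene of the 6 that was lower with alpelisib in both settings. None was called without a mean-variance trend or with the mean of probe sets.

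For 3 results the L-histidinol pair and the plain pair pointed in opposite directions by at least 0.1 each (medians of lists) or 0.2 each (named genes); other lists had medians of opposite sign nearer to 0. The median of the interferon response list was 0.24 in the plain pair and -0.15 with L-histidinol, a difference of -0.39 that was not tested. ASNS, asparagine synthetase, was 0.22 and -0.40, a difference of -0.62 between the pairs, and the test over both osimertinib backgrounds gave -0.53 ± 0.09 (adjusted p = 0.280). HMGCS1, a sterol synthesis enzyme, was -0.21 and 0.20, a difference of 0.41, and the same test gave 0.47 ± 0.13 (adjusted p = 0.889).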

How the results depend on the processing

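With 3 residual degrees of freedom the counts of calls moved with how the spread was estimated. For alpelisib against vehicle, 779 genes were called (625 higher, 154 lower) without the mean-variance trend and 1222 (795 and 427, 31 at 2-fold or more) with the mean of probe sets. All 2-way terms gave 5022 (2667 and 2355), the 4 arrays alone 1553 lower, median centring 2000 lower, leaving out marked probe sets 519 lower, and adding 16 before log2 left 25 at 2-fold or more. Quantile normalization and the level filter kept all these counts within 1.5 times. With 1 array left out 175 to 3009 genes were called, 169 to 1690 higher and 6 to 1322 lower, and 43 to 88 at 2-fold or more, where the lone array left in a group is assumed to vary like the others. Removing the paired structure (no L-histidinol term, so no replicate block) left 42 genes, 42 higher and 0 lower, 19 of them at 2-fold or more, 23 genes for adding alpelisib to osimertinib, 150 for osimertinib minus alpelisib and 0 for the departure. Adding alpelisib gave 1017 without the trend, 1646 with the mean of probe sets and 508 to 3271 with 1 array left out. Osimertinib minus alpelisib gave 1042 without the trend and 452 to 2751 with 1 array left out. The departure gave 0 without the trend, 0 with the mean of probe sets and 0 to 68 with 1 array left out, and the L-histidinol contrast 278 with its own prior.

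Of 143 named genes 124 were called with alpelisib, and 11 of them under each of 18 alternatives: ATG9B, CARD16, CCN5, ERBB3, FBXO32, GBP2, LEMD1, SMIM14, TMEM255A, YPEL2 and YPEL3. A further 18 lost the call only without the L-histidinol term among the alternatives that gave them a value (6 of the 18 had none under 1 alternative), among them LBH, CCNG2, IRS2, CTSH and DDIT4. With marked probe sets left out 7 named genes turned sign: BOK (-0.27), COL1A2 (-0.22), TMT1A (-0.0216), FARSB (0.0047), PPAT (0.0640), PDSS1 (0.16) and RRP12 (0.40). The causes of these changes were not tested.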

Other observations

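Families of genes that share the start of their symbol were counted after the data were seen, with no test, among 133 families with at least 10 members at a mean level of 5 or more. Over all 11627 such genes 1327 were called higher and 832 lower (18.6%). The UTP symbols, mostly proteins of the small ribosomal subunit processome, had the largest share called, 7 of 10, all lower (median -0.33). TIMM symbols, the inner mitochondrial membrane import machinery, followed with 8 of 14, all lower (median -0.33), including TIMM8A (-0.66), TIMM44 (-0.51) and TIMM50 (-0.47). Nuclear pore NUP symbols were lower for 9 of 23, exosome EXOSC symbols for 4 of 10, and mitochondrial ribosome symbols for 17 of 49 (MRPL) and 10 of 27 (MRPS). The RPL and RPS symbols differed from these, with 2 of 40 RPL symbols lower and 3 of 31 RPS symbols higher with 1 lower. Their medians were -0.01 and -0.003. These symbols include cytosolic ribosomal proteins, but RPS also takes in kinases such as RPS6KB1, so the counts are not of ribosomal proteins alone. None of the 12 NDUFA and 12 NDUFB symbols of respiratory complex I was called. Of 11 ITGB symbols 6 were called, all higher (median 0.29), among them the integrin subunits ITGB3 (1.28), ITGB8 (1.03), ITGB5 (0.71) and ITGB4 (0.58).

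The UTP, TIMM, NUP, EXOSC, MRPL, MRPS and ITGB medians kept their sign under median centring and quantile normalization. Their counts did not hold with the alpelisib array with L-histidinol left out, when 0 of each were called. Without the plain alpelisib array the counts were 1 UTP, 4 TIMM, 2 NUP, 2 EXOSC, 2 MRPL, 0 MRPS and 4 ITGB symbols, and without the plain vehicle array 1, 3, 1, 2, 4, 0 and 5.

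Genes called lower made up 4.38% of all genes and 832 of the 11627 with a mean level of at least 5. Of 9 genes measured under POLR3 symbols, subunits of RNA polymerase III, POLR3G (-0.82), POLR3K (-0.67), POLR3F (-0.43) and POLR3E (-0.28) were called lower. The 5 others, POLR3A (-0.21), POLR3B (-0.23), POLR3C (-0.07), POLR3D (-0.13) and POLR3GL (0.20), were not called. Chosen likewise after their values were seen, the guanylate-binding GBP1 (1.18 ± 0.17, adjusted p = 0.00178) and GBP3 (0.28 ± 0.08, adjusted p = 0.0464) were called higher beside GBP2.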
